A study of Rattus norvegicus with 9 samples.

Results

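The BCL2 family decides whether a stressed cell keeps its mitochondria intact or lets them release the proteins that start its death. The 10 genes described here are its best known members: Bcl2, Bcl2l1 and Mcl1, whose proteins hold cells alive, the effectors Bax and Bak1, and the BH3-only genes Bcl2l11, Bad, Bid, Bbc3 and Pmaip1. They were taken by symbol from the 14497 genes that a probe with a single gene symbol names on the array, and among probes of the same gene the one to read was selected on its mean level over all 7 animals, the highest being taken. The 10 genes had 13 probes in all, since Bcl2l1, Mcl1 and Bax had 2 each. The genes themselves were proposed with the MetS and control differences of the same animals known, so their differences are given as measured values and the number of them that differed is not evidence about the family.

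RNA came from whole lung of Wistar rats. The MetS group held 3 male rats in which metabolic syndrome was induced by giving a 30% sucrose solution as the sole drink for 24 weeks after weaning. The control group held 4 rats kept for the same 24 weeks on water, their sex not being stated in the labels. Both groups ate the same standard chow, fasted for 7 hours and were killed by decapitation, so chow and the fast are shared by all animals and differences in sex or in intake cannot be told apart from the drink. A rat on sucrose water is a dietary model, and no weight, glucose or blood pressure of these animals was used here. Each animal had 1 whole-transcript expression array, and MetS animal 1 and control animal 1 had a second, a technical replicate, which was averaged with the first.

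In a healthy cell BCL2, BCL-XL (the product of Bcl2l1) and MCL1 bind and restrain BAX and BAK. Signals of damage, growth factor loss or protein stress raise or release BH3-only proteins such as BIM (Bcl2l11), PUMA (Bbc3) and NOXA (Pmaip1), which occupy the survival proteins, and BAX and BAK then open the outer mitochondrial membrane. MCL1 is known to keep neutrophils alive, and BCL-XL to protect maturing red blood cells and, in the lung, epithelial cells. Much of this control acts on the proteins, which an RNA array does not see.

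The start regions of the survival gene and the BH3-only gene with the widest differences are printed here for the motifs of regulators known to act on them. RefSeq (build GRCr8) gave 11 windows, from 250 bases before to 50 bases after an annotated start, for 8 of the 10 genes. Bcl2l1 has 4 annotated starts. The window below, chr3:161763336-161763635 on the minus strand, is shown because it holds TTCNNNGAA, the palindrome bound by STAT factors, which are known to drive Bcl2l1; the capitals mark its 2 copies, whose first bases lie at -94 and -13 from the start. The window of Bcl2l11, chr3:135819792-135820091 on the plus strand, is shown because it holds GTAAACA, a core of the site of FOXO factors, which are known to switch this gene on; the capitals mark the copy. Both run 5′ to 3′ on the gene's strand.
Bcl2l1: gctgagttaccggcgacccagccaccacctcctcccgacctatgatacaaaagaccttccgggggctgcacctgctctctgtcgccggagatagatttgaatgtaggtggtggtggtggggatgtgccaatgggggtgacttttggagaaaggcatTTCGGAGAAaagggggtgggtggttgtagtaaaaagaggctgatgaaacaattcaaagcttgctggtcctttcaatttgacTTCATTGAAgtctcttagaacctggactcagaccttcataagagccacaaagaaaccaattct
Bcl2l11: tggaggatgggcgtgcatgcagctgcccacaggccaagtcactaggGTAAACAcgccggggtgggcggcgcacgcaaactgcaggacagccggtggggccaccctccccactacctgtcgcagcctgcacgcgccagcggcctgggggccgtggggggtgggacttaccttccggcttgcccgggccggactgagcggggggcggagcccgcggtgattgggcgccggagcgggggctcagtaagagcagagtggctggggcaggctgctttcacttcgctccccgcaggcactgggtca

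Searched on both strands, TTCNNNGAA was in 8.87% of the 33469 rat windows of this length and in 3 of the 11 family windows: the one of Bad and an overlapping pair of Bcl2l1 that share the same copies. GTAAACA was in 3.78% of all windows and in those of Bcl2l11 and Bad. AGAACA, a core of the site of the glucocorticoid receptor, was in 20.7% of all windows and in 0 of the 11. AGATAA and TGATAA, forms of the site of the red cell GATA factors, were in 11.6% and 9.03% of all windows; Bad held the second form and no family window held the first. These motifs were kept from a wider search of the same windows, and a match is a run of letters, not a measured binding site.

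Across the array 0 of 28826 probes passed an adjusted p of 0.05 (0.0% of them, limma with Benjamini-Hochberg adjustment), where the lowest such value was 0.324. Without adjustment limma put 13.7% of the probes under 0.05, 1102 with a higher and 2857 with a lower MetS mean. Quantile normalizing the arrays again turned that split to 2312 higher and 1993 lower. The arrays differed in spread: the SD of all values was 1.88 to 1.93 in MetS, 1.85 and 1.88 in controls 1 and 4, and 1.77 and 1.76 in controls 2 and 3. Lists of alveolar type 2 markers had mean levels of 12.57 to 12.64 in MetS and 12.53 to 12.61 in controls on a scale that ends at 14.16. On 40.9% of the probes, at least 2 of the 9 arrays carried a value identical to the last deposited digit, and so did the probes read for 6 of the 10 genes: Bak1, Bcl2l11, Bad, Bid, Bbc3 and Pmaip1. The probes read for Bcl2, Bcl2l1, Mcl1 and Bax had 9 distinct values. Such repeats narrow the spread of a probe, and their cause was not tested. Every value below is log2 expression or a difference of it, and levels of different probes are not compared.

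Bcl2l1 had the widest difference between the groups among the 10 genes. Its RNA carries the survival protein BCL-XL. The level was 10.56, 10.36 and 10.25 in MetS animals 1 to 3, and 9.97, 9.98, 9.76 and 10.08 in controls 1 to 4. All MetS animals lay above all controls, with a gap of 0.178 between the closest animals of the groups. The means were 10.39 ± 0.16 (SD, n = 3) and 9.94 ± 0.13 (SD, n = 4), a difference of 0.45 with a 95% interval of 0.20 to 0.69, or 1.36-fold. In limma the unadjusted p was 0.0032 and the adjusted p was 0.324, so it did not pass over all probes.

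The gene's other probe read nearly the same difference from other target records. The probe just described is annotated by 1 GenBank record and no RefSeq transcript, and the other by 5 records, of which 4 are RefSeq transcripts. That other probe gave 9.35, 9.16 and 9.09 in MetS against 8.96, 8.76, 8.62 and 8.72 in controls. Its groups did not overlap either, and MetS animal 1 was the highest and control 3 the lowest on both probes. The difference was 0.44, with an interval of 0.20 to 0.67. The 2 probes measured the same RNA samples, so they repeat the measurement and not the animals.

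For Bcl2l1 the repeat arrays of 1 animal were closer than the groups. The pair of arrays differed by 0.05 in MetS animal 1 and by 0.12 in control 1. Over the 10 genes these distances ran from 0.01 to 0.13, with a median of 0.05, in MetS animal 1, and from 0.00 to 0.20, with a median of 0.10, in control 1. The median over all named genes was 0.05 and 0.06 in these animals. In 5 of the 10 genes, Bcl2, Bax, Bad, Bid and Bbc3, the repeat arrays of 1 of these animals lay at least as far apart as the group means. Whether a repeat array began from the tissue, the RNA or the labelled copy was not stated in the labels.

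Mcl1, the short-lived survival protein gene, was also higher in MetS on its brighter probe. That probe read 12.44, 12.42 and 12.48 in MetS and 12.17, 12.19, 12.08 and 12.37 in controls. The groups did not overlap, but control 4 came within 0.056 of the lowest MetS animal. That gap was less than the distance of 0.20 between the 2 arrays of control 1, at 12.07 and 12.27. The 2 arrays of MetS animal 1 were 0.04 apart. The difference was 0.24, with an interval of 0.06 to 0.43 (limma, unadjusted p = 0.0161, adjusted p = 0.324). The other Mcl1 probe differed by 0.03, with an interval of -0.09 to 0.15, and its 7 values lay between 7.95 and 8.03, with an identical value on 5 of the 9 arrays. Both probes are annotated with a RefSeq transcript of the gene, so the Mcl1 difference rests on 1 of its 2 probes, and averaging them gave 0.14.

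Bcl2, the founding survival gene of the family, varied more from animal to animal than between the groups. It read 7.96, 7.90 and 8.51 in MetS and 7.91, 7.67, 7.98 and 8.28 in controls. MetS animal 3 and control 4 were the high animals, and the groups overlapped widely. The difference was 0.16, with an interval of -0.28 to 0.60, and without MetS animal 3 it turned to -0.03. Its SD within groups, 0.29, was larger than that of 89.3% of all named genes.

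**Figure D1:**
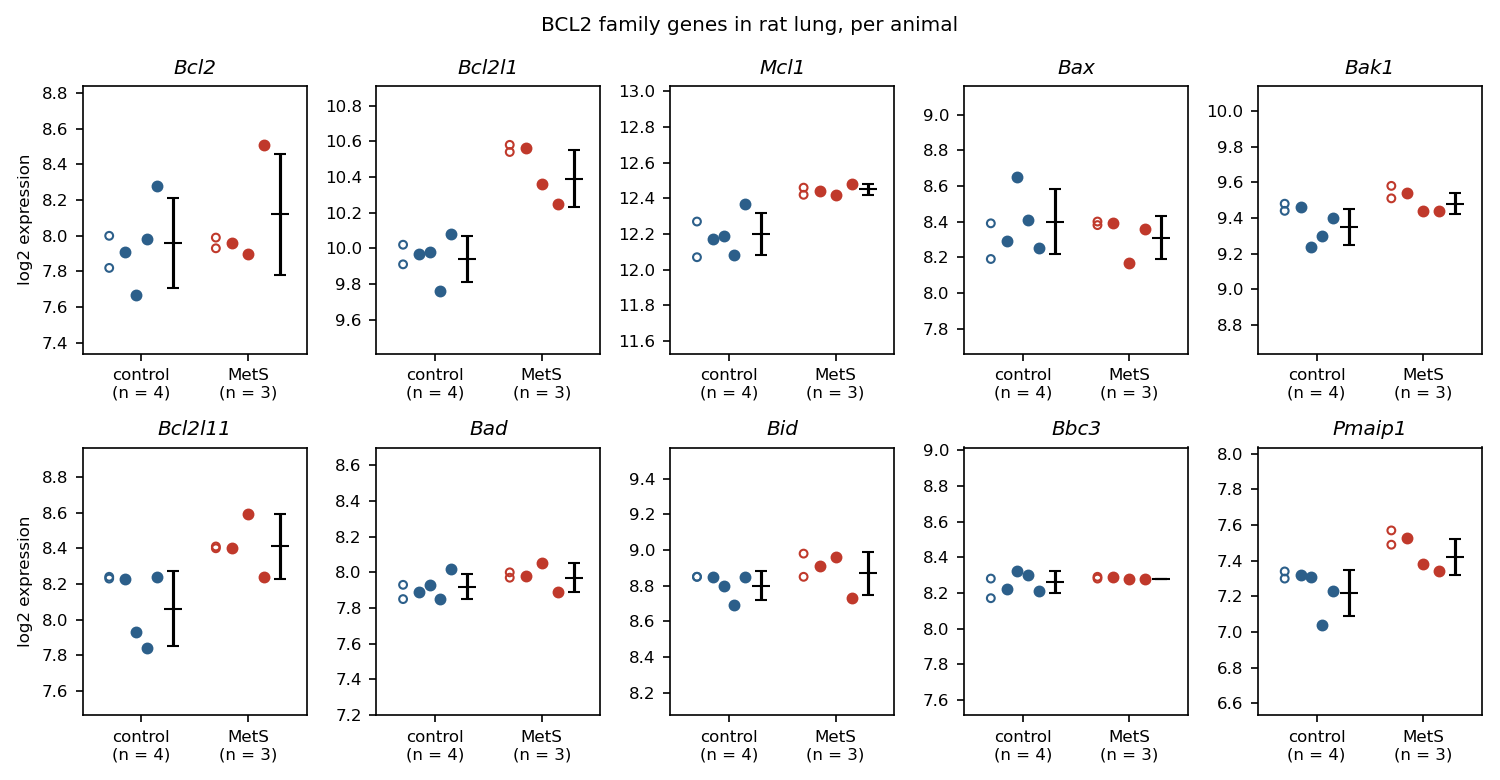
Log2 expression (vertical axis, the same span of 1.5 in each panel) of the 10 BCL2 family genes in 4 control and 3 MetS animals. Filled points are animals, open points the 2 arrays of animal 1 of each group, and the bar is the mean with its SD; Bcl2l1, Mcl1 and Pmaip1 are the panels in which the groups are apart.

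Neither effector of the mitochondrial membrane was separated between the groups. Bak1 read 9.54, 9.44 and 9.44 in MetS against 9.46, 9.24, 9.30 and 9.40 in controls, a difference of 0.13 with an interval of -0.04 to 0.30. Control 1 lay above both lower MetS animals. Bax was the only gene of the 10 with a lower MetS mean, at 8.39, 8.17 and 8.36 against 8.29, 8.65, 8.41 and 8.25. That difference was -0.10, with an interval of -0.36 to 0.17, and control 2 alone held the highest value. The other Bax probe differed by 0.07, with an interval of -0.13 to 0.26, so the 2 Bax probes had opposite signs and neither settled a direction.

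Among the BH3-only genes, the triggers of the family, Bcl2l11 had the widest difference. Bcl2l11, the gene of BIM, read 8.40, 8.59 and 8.24 in MetS and 8.23, 7.93, 7.84 and 8.24 in controls. The lowest MetS animal and control 4 met at 8.24, an identical deposited value that 1 array of control 1 also carried, so the mean difference came from controls 2 and 3 and from MetS animals 1 and 2. The difference was 0.35, or 1.28-fold, with an interval of 0.04 to 0.66 (limma, unadjusted p = 0.0327, adjusted p = 0.34). Without controls 2 and 3 it was 0.18. Pmaip1, the gene of NOXA, which binds MCL1, read 7.53, 7.38 and 7.34 in MetS and 7.32, 7.31, 7.04 and 7.23 in controls. Its groups did not overlap, by a margin of 0.019, which is less than the distance between the 2 arrays of either repeated animal. The difference was 0.19, with an interval of -0.02 to 0.41 (limma, adjusted p = 0.391).

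The remaining BH3-only genes had small differences whose intervals reached both sides of 0. Bid, which links death receptors to mitochondria, differed by 0.07, with an interval of -0.11 to 0.26. Bad, which growth factor signals hold inactive, differed by 0.05, with an interval of -0.11 to 0.22. Bbc3, the gene of PUMA, differed by 0.02, with an interval of -0.11 to 0.16, and by -0.02 when the arrays were quantile normalized again. The 3 MetS values of Bbc3 lay between 8.28 and 8.29 and the 4 control values between 8.21 and 8.32, with an identical value on 3 of the 9 arrays. Its SD within groups was larger than that of only 4.9% of the named genes, and shifts as wide as that of Bcl2l1 lie outside its interval.

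**Figure D2:**
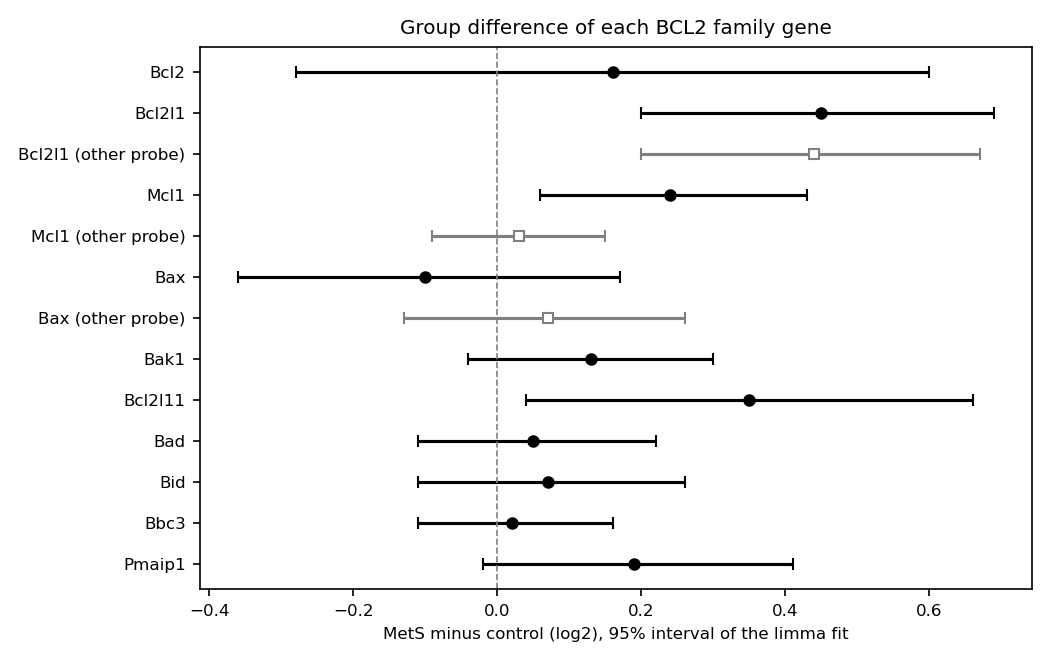
Difference of MetS minus control in log2 units (horizontal axis) for each probe of the 10 genes, with the 95% interval of the limma fit; filled circles are the probes with the highest mean and open squares the other probes. The intervals of both Bcl2l1 probes, the brighter Mcl1 probe and Bcl2l11 lie above 0, without adjustment for the number of probes tested.

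Read by role, 3 of 3 survival genes, 1 of 2 effectors and 5 of 5 BH3-only genes had a higher MetS mean. Their median differences were 0.24, 0.02 and 0.07, against 0.04 over all 14497 named genes, 62.0% of which were higher. At an unadjusted p under 0.05 by limma, 3 of the 10 were higher and 0 lower, where 3.87% of all named genes were higher and 9.17% lower. The groups did not overlap for 3 of the 10, all higher, where 5.57% of named genes did so in that direction and 6.02% in the other. After adjustment 0 of the 10 passed (0.0% of named genes). Of the 3 genes under the unadjusted threshold, Bcl2l1 and Mcl1 are survival genes and Bcl2l11 is a death-promoting one. The medians of the effectors and of the BH3-only genes lay near that of all named genes. The genes were proposed with these results known.

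Control 4 was the highest and control 3 the lowest control in these genes, with median deviations of 0.07 and -0.09 from the control mean. Control 4 lay above the control mean in 8 of the 10 genes, as MetS animals 1 and 2 did, against 7 in MetS animal 3. Controls 1, 2 and 3 lay above it in 5, 6 and 3 genes. MetS animals 1 to 3 had median deviations of 0.34, 0.41 and 0.27 from the control mean over Bcl2l1, Mcl1 and Bcl2l11, and controls 1 to 4 had 0.02, -0.01, -0.19 and 0.17. Control 4 thus lay between the other controls and the MetS animals, and control 3 was lowest. The SD of all values on the arrays had a similar order, with control 4 at 1.88 beside MetS animal 3 at 1.88. It ran from 1.88 to 1.93 in MetS and from 1.76 to 1.88 in controls, and so went largely with the group. A fit that holds both SD and group cannot tell their parts apart. With that SD as a covariate in the fit the Bcl2l1 difference went from 0.45 to 0.25, that of Mcl1 from 0.24 to 0.12 and that of Bcl2l11 from 0.35 to 0.06, and 0 of the 10 genes kept an unadjusted p under 0.05 in limma. Without controls 2 and 3 the same differences were 0.37, 0.18 and 0.18, and Bcl2l1 alone kept such a p.

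Some marker lists of other cells also differed in mean between the groups. Among the MetS animals, animal 1 had the highest Bcl2l1 level, at 0.62 above the control mean. It was the lowest of them for the red cell, dividing cell and neutrophil lists, at deviations of 0.34, 0.19 and -0.03. In whole lung, more cells of a type and more RNA per cell cannot be told apart. For the counts of the marker lists below, 62.0% of all named genes were higher in MetS. At an unadjusted p under 0.05 (limma), 3.87% of all named genes were higher and 9.17% lower. Red cell markers were higher in MetS in 5 of 5 measured genes, 3 of them at an unadjusted p under 0.05 (limma), with a median difference of 0.50. With the array SD as a covariate 3 of 5 were higher and the median was 0.11, and without controls 2 and 3 it was 0.27. The mean level of the list was 9.60 to 9.90 in MetS and 8.94 to 9.65 in controls. Hbb, the beta-globin gene, read 13.24, 13.40 and 13.25 in MetS and 12.96, 12.99, 12.86 and 13.25 in controls, and Alas2, the haem synthesis enzyme of red cell precursors, averaged 10.98 ± 0.25 (SD, n = 3) against 10.35 ± 0.47 (SD, n = 4). Control 4, whose red cell mean of 9.65 lay within the MetS range, had a Bcl2l1 level of 10.08, below every MetS animal, and an Mcl1 level of 12.37, near the lowest of them. The part of red cells in the Bcl2l1 and Mcl1 differences was not tested.

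Dividing cell markers were higher in 7 of 7 measured genes, 5 of them at an unadjusted p under 0.05 (limma), with list means of 7.52 to 7.78 in MetS and 7.16 to 7.52 in controls. Examples were Top2a, the topoisomerase of dividing cells, at 8.44 ± 0.14 (SD, n = 3) against 8.04 ± 0.16 (SD, n = 4), and the spindle gene Nusap1, at 7.54 ± 0.05 against 7.20 ± 0.17. Neutrophil markers, of interest for Mcl1, were higher in 5 of 8 genes, with none at an unadjusted p under 0.05, and their list means overlapped, at 8.82 to 9.06 in MetS and 8.70 to 9.01 in controls. The chemokine receptor gene Cxcr2 averaged 9.42 ± 0.21 against 9.02 ± 0.31, and the calprotectin gene S100a9 11.05 ± 0.22 against 10.87 ± 0.07. MetS animal 1, the lowest MetS animal for neutrophil markers, had an Mcl1 level of 12.44, between the other MetS animals. With the array SD as a covariate the median of the dividing cell list went from 0.24 to 0.16 and that of the neutrophil list from 0.16 to 0.01. The part of dividing cells and neutrophils was not tested.

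Fibroblast and smooth muscle markers were higher in 6 of 8 genes, 1 of them at an unadjusted p under 0.05 (limma), with a median of 0.18 that was 0.12 with the array SD as a covariate and 0.13 without controls 2 and 3. Tcf21, a transcription factor of lung fibroblasts, read 9.57, 9.64 and 9.60 in MetS and 9.31, 9.33, 9.34 and 9.37 in controls. Its groups did not overlap, and the difference was 0.27, with an interval of 0.14 to 0.39 (limma, unadjusted p = 0.00137, adjusted p = 0.324). The collagen gene Col1a2 differed by 0.17, with an interval of -0.01 to 0.34. The list means overlapped, at 9.61 to 9.76 in MetS and 9.41 to 9.67 in controls, and the part of these cells in the member differences was not tested. The lists of alveolar type 1 and type 2, club and ciliated, endothelial, macrophage, and mast cell and platelet markers had medians from -0.04 to 0.04 and overlapping means. The mast cell and platelet list joined both directions, with 5 genes higher and 2 lower, from -0.28 for Ms4a2 to 0.42 for Pf4. Its median of 0.01 was -0.22 with the array SD as a covariate and -0.13 without controls 2 and 3.

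Lymphocytes, which depend on BCL2, gave lists with overlapping ranges. T cell marker means were 7.94 to 8.63 in MetS and 8.04 to 8.39 in controls, with 9 of 9 genes higher and none at an unadjusted p under 0.05 by limma. With the array SD as a covariate 6 of 9 were higher and the median went from 0.13 to 0.10. Without controls 2 and 3 that median was 0.03. Cd2 averaged 8.11 ± 0.40 (SD, n = 3) against 7.76 ± 0.24 (SD, n = 4) and Cd3d 7.44 ± 0.23 against 7.25 ± 0.21. Of 4 measured B cell markers 3 were lower, 1 of them at an unadjusted p under 0.05 by limma, with list means of 7.83 to 8.33 in MetS and 8.10 to 8.39 in controls. Blk, a kinase of B cells, averaged 7.50 ± 0.10 (SD, n = 3) against 7.72 ± 0.09 (SD, n = 4) (limma, unadjusted p = 0.0251, adjusted p = 0.33). Its groups did not overlap, the closest animals being MetS animal 3 at 7.59 and control 1 at 7.62. Cd79b, a chain of the B cell receptor, averaged 9.32 ± 0.30 against 9.62 ± 0.19. The part of lymphocytes in the Bcl2 values was not tested. No list on this scale reached 0, since array values keep a background level.

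**Figure D3:**
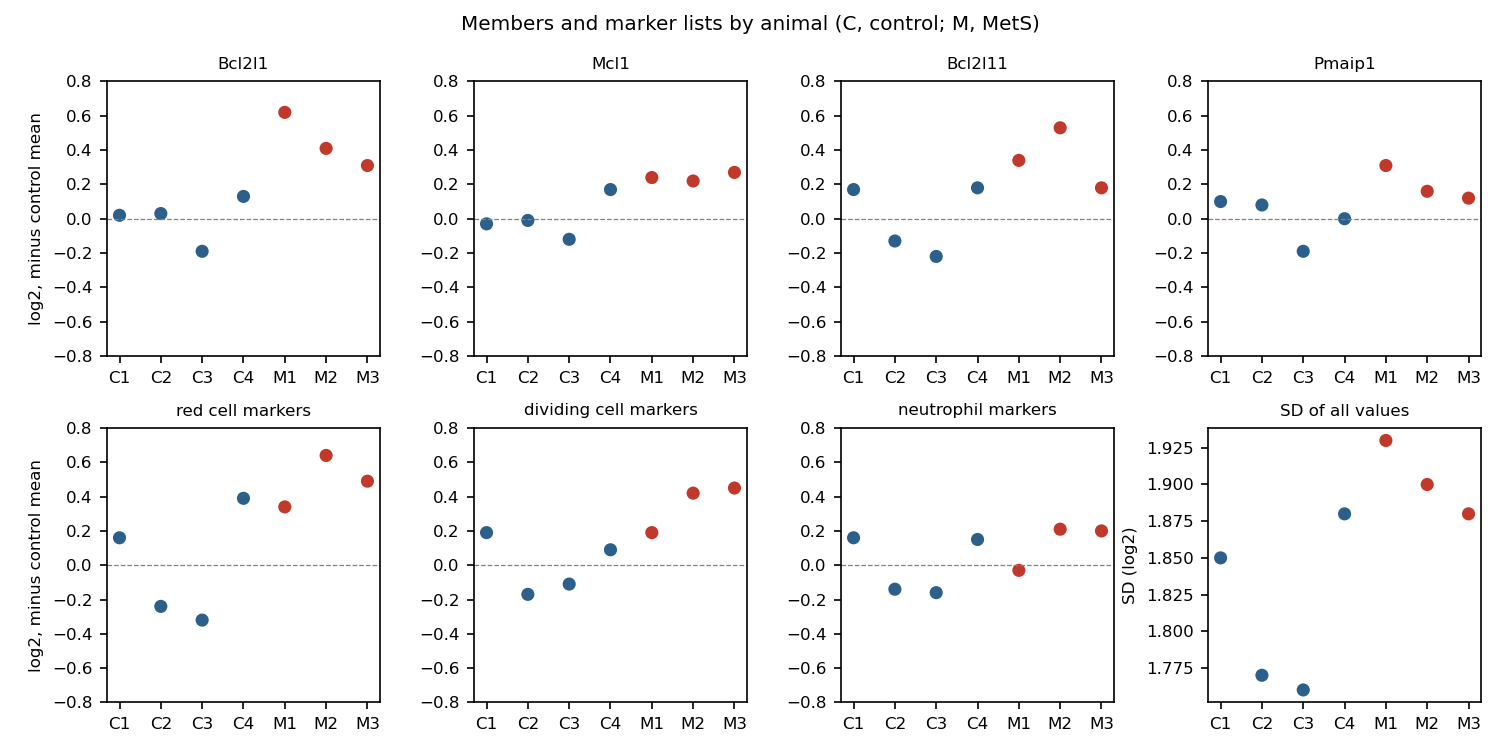
Deviation from the control mean in log2 units (vertical axes of the first 7 panels) for 4 genes and for the mean of 3 marker lists, and the SD of all values (last panel, its axis not starting at 0), in controls C1 to C4 and MetS animals M1 to M3. Controls 2 and 3 are low for the red cell list, at -0.24 and -0.32, and for the SD, and control 4 lies among the MetS animals there.

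The rest of the cell death pathway moved little. Of 111 listed genes 95 were measured by a probe of their own, 74 with a higher and 21 with a lower MetS mean. Their median was 0.06 against 0.04 over all named genes, 62.0% of which were higher. At an unadjusted p under 0.05 by limma, 2 were higher and 1 lower, where 3.87% of all named genes were higher and 9.17% lower. After adjustment 0 passed. With the array SD as a covariate 30 of the 95 were higher and the median was -0.06, where 7080 of all 14497 named genes were higher with a median of -0.00; without controls 2 and 3 the median of the 95 was -0.00. The direction of the lists together therefore turned with that covariate, which went largely with the group and cannot be told apart from it. The counts under it are given beside each list. The count of 3 became 0 without control 2 or without control 3, and 8 without control 4. Bcl2l2 shares its probe with another gene.

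Among 12 other genes of the BCL2 family 8 were higher and 4 lower, with a median of 0.01, and 5 were higher with the covariate, at a median of -0.05. Bcl2l15 averaged 7.14 ± 0.08 (SD, n = 3) in MetS against 7.33 ± 0.12 (SD, n = 4), a difference of -0.20 (limma, adjusted p = 0.361). Its groups did not overlap, but MetS animal 3 at 7.21 and control 4 at 7.22 nearly met. Bcl2l10 differed by -0.23 and the BH3-only gene Bik by -0.14, with intervals of -0.48 to 0.03 and -0.34 to 0.06. Bcl2l10 differed by 0.00 after another quantile normalization. Its probe was dim, at 5.53 to 6.06 in the animals, below the 25th percentile of probe means, 6.48. The survival gene Bcl2a1 of white blood cells differed by 0.11, with an interval of -0.22 to 0.43, and the effector relative Bok by 0.00, with an interval of -0.12 to 0.13.

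Downstream of the mitochondria, 10 of 12 apoptosome and executioner genes were higher, with none at an unadjusted p under 0.05 (limma) and a median of 0.05. With the covariate 2 of 12 were higher and the median was -0.07, and without controls 2 and 3 it was -0.02. The initiator caspase gene Casp9 averaged 7.82 ± 0.05 (SD, n = 3) against 7.66 ± 0.12 (SD, n = 4), a difference of 0.16. Apaf1, the scaffold of the apoptosome, differed by 0.11 and Aifm1, a mitochondrial flavoprotein, by 0.12, each with an interval that included 0. Cycs, cytochrome c, differed by 0.01, with an interval of -0.19 to 0.21 and of either sign between settings. Of 4 caspase inhibitors 3 were higher, and 2 with the covariate. Birc2 differed by 0.21, Birc3 by -0.15 and Xiap by 0.07, again with intervals on both sides of 0. Mitochondrial partners were higher in 7 of 10 genes, and in 2 of 10 with the covariate, where their median went from 0.05 to -0.07; without controls 2 and 3 it was -0.03. In the reported fit Dnm1l, the fission enzyme, was at 0.15, Vdac2, the pore that holds BAK, at 0.11 and Opa1, the inner membrane fusion enzyme, at 0.12.

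The death receptor arm, which reaches the family through Bid, had 8 of 9 genes higher and a median of 0.12. With the covariate 2 of 9 were higher and the median was -0.08, and without controls 2 and 3 it was 0.01. Cflar, the inhibitor of caspase-8 called FLIP, read 10.27, 10.39 and 10.42 in MetS and 10.11, 10.19, 10.04 and 10.29 in controls. Control 4 lay above MetS animal 1, and the difference was 0.20, with an interval of 0.02 to 0.39 (limma, unadjusted p = 0.036, adjusted p = 0.344). Fadd, the adaptor of these receptors, differed by 0.22 and the kinase gene Ripk1 by 0.12, with intervals of -0.10 to 0.53 and -0.07 to 0.32.

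Regulators that set the level of the BH3-only genes were measured as lists. Genes of the DNA damage response had 11 of 13 genes higher, with none at an unadjusted p under 0.05 (limma) and a median of 0.09; with the covariate 5 of 13 were higher and the median was -0.03. Phlda3 differed by 0.15, Sesn1 by 0.13 and Mdm2 by 0.06, and the cell cycle inhibitor Cdkn1a by 0.11 with an interval of -0.43 to 0.65. FOXO factors and targets had 7 of 8 higher and a median of 0.08; with the covariate 2 of 8 were higher and the median was -0.07, and without controls 2 and 3 it was -0.00. Foxo1, a factor that insulin signalling keeps out of the nucleus, averaged 9.19 ± 0.09 (SD, n = 3) against 8.94 ± 0.17 (SD, n = 4), a difference of 0.25 with overlapping groups (limma, unadjusted p = 0.0484, adjusted p = 0.362). Foxo3 differed by 0.11, Bcl6 by 0.13 and Gadd45b by -0.15. Genes of the unfolded protein and integrated stress responses were split, with 5 of 9 higher and a median of 0.00, or 2 of 9 and -0.13 with the covariate. Ddit3, the factor CHOP that induces Bcl2l11 under protein stress, differed by 0.07, with an interval of -0.07 to 0.21, Trib3 by -0.10 and Chac1 by 0.05.

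Genes that set the stability of the MCL1 and BH3 proteins had 7 of 8 higher and a median of 0.12, or 6 of 8 and 0.05 with the covariate. The ubiquitin ligase scaffold Cul5 averaged 9.60 ± 0.13 (SD, n = 3) against 9.36 ± 0.16 (SD, n = 4), a difference of 0.25 with an interval of -0.00 to 0.50. Usp9x, the enzyme that removes ubiquitin from MCL1, read 11.05, 10.99 and 11.01 in MetS and 10.90, 10.78, 10.84 and 10.97 in controls. The groups did not overlap, and control 4 was again the closest, with a difference of 0.14 (limma, adjusted p = 0.395). Ywhab, a 14-3-3 protein gene of the kind that holds BAD, differed by 0.14, with an interval of -0.02 to 0.29. Of survival signalling genes 8 of 10 were higher, with a median of 0.06; with the covariate 2 of 10 were higher and the median was -0.07, and without controls 2 and 3 it was -0.02. Among those whose products act on Bcl2l1, Stat3 differed by 0.12, Jak2 by 0.12 and Rela by 0.07, each with an interval on both sides of 0.

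**Figure D4:**
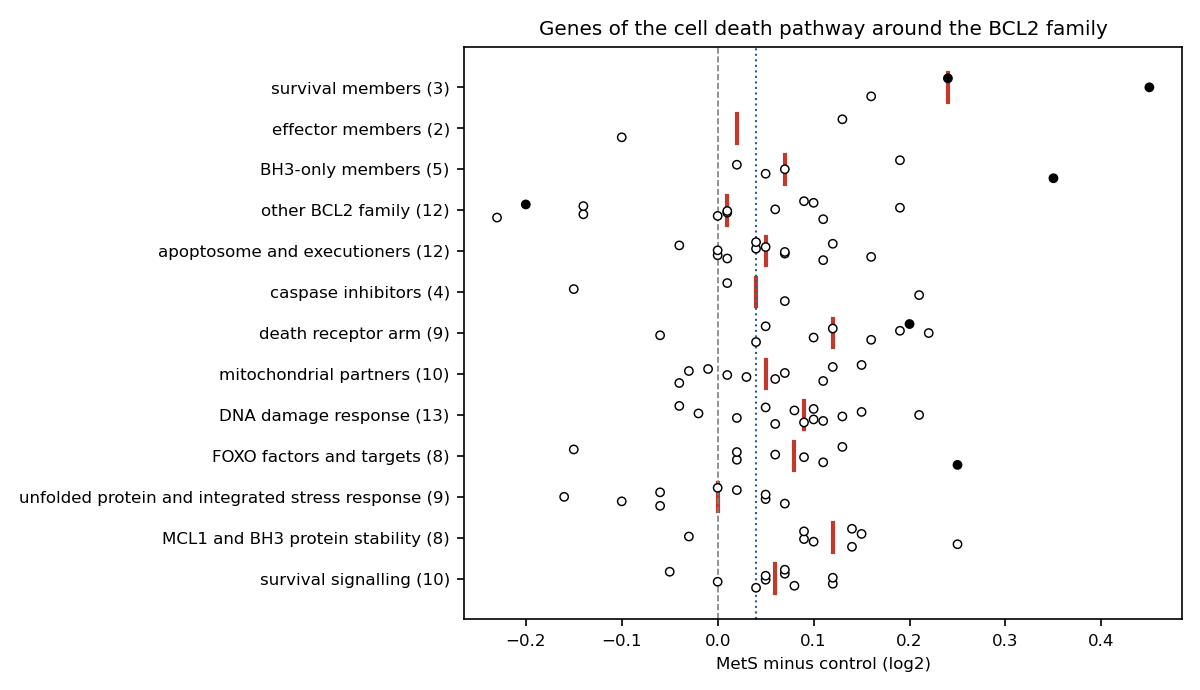
Difference of MetS minus control in log2 units (horizontal axis) for each measured gene of the family and of 10 pathway lists, with the number of genes in parentheses; filled points have an unadjusted p under 0.05 in limma, red bars are list medians and the dotted line the median of all named genes, 0.04. Bcl2l1 and Bcl2l11 lie to the right of all 95 pathway genes.

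Across 19 alternative settings Bcl2l1 stayed higher in MetS, between 0.25 and 0.51, with an unadjusted p under 0.05 in 18 of them (limma). For Mcl1 and Bcl2l11 that p was reached in 15 and in 13 settings. Leaving out MetS animal 3 took it from Mcl1, whose difference was then 0.23 against 0.24 with all animals. For Bcl2l11, at 0.35 with all animals, leaving out MetS animal 1, MetS animal 2, control 2 or control 3 took it, at differences of 0.35, 0.26, 0.31 and 0.28. Without control 4 the Bcl2l1 difference was 0.49, and its adjusted p was 0.0672 (limma). The array as a whole changed there too, with a lowest adjusted p of 0.0522. At an unadjusted p under 0.05, 2016 probes were higher and 4164 lower, against 1102 and 2857 with all animals.

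**Figure D5:**
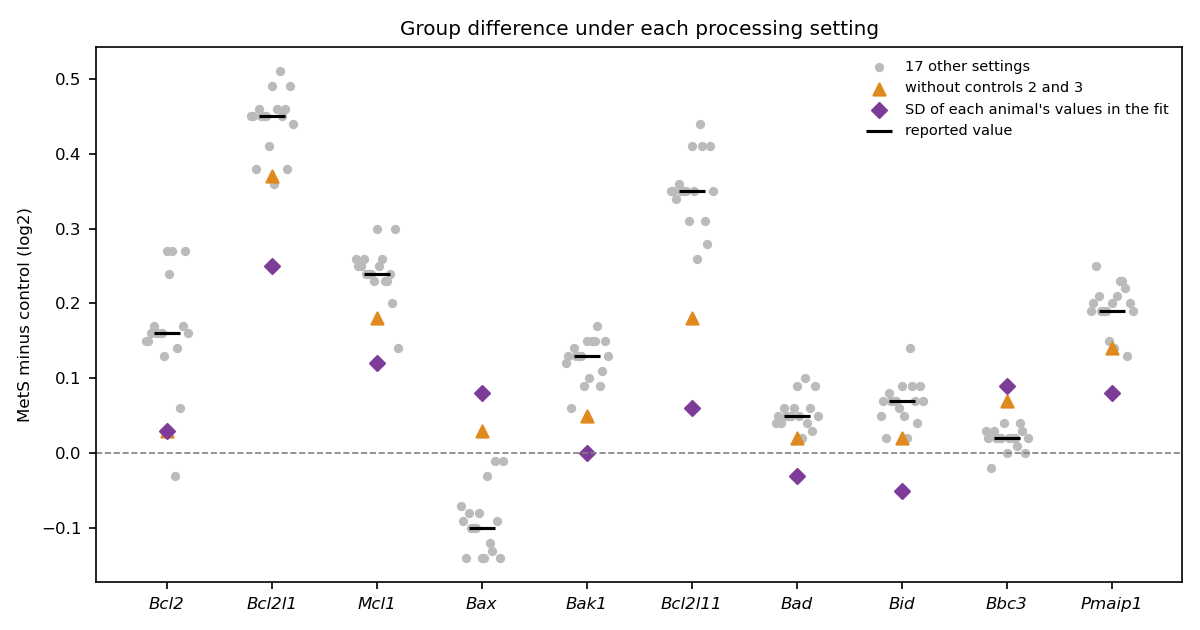
Difference of MetS minus control in log2 units (vertical axis) of each of the 10 genes in the reported fit (black bar) and in 19 alternative settings (points). The Bcl2l1 values lie between 0.25 and 0.51, whereas those of Bcl2, Bax, Bad, Bid and Bbc3 fall on both sides of 0.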

How the data were processed

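The values deposited by the authors are log2 expression, with array medians from 7.64 to 7.69. Per the submitters' processing notes R 2.11.0, RMA and limma took part, in roles that the notes leave out. No source used here names a genome build. RMA usually quantile normalizes arrays together and compresses values near the top and bottom of the scale. The 9 arrays stood for 7 animals, whose technical replicates were averaged; n = 3 and n = 4 limit the precision of every value. Probes with 1 gene symbol numbered 15209 (52.8%), 306 had several and 13311 none; symbols were updated through RefSeq.

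MetS and control were compared with lmFit and eBayes (limma 3.58.1, R 4.3.3; 7.28 degrees of freedom), adjusted by Benjamini-Hochberg over 28826 probes. On simulated data with the real means and SDs, the test over 28826 probes recovered 80.7% of changes of 1 and 93% of changes of 2 on the log2 scale. Over the 3 runs it also called 34 unchanged probes. Changes as small as those of the 10 genes, of which the widest was 0.45, were not simulated. The recovery therefore does not apply to them. Named were all 10 genes, up to 3 genes of each pathway list and 2 of each marker list by smallest p, and some fixed genes whatever their value; of the 12 marker lists, those set beside a result are described. Members, lists and alternatives were chosen with earlier results of these data known. Tables were made with pandas 2.3.3 and scipy 1.17.1, figures with matplotlib 3.10.9.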

Additional observations from a re-analysis of the deposited data

Results flagged for a closer look

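Of 60 sets of 4 control values examined, 2 had an animal far from the other 3, where chance flags about 1 in 20. On the dimmer Mcl1 probe control 1 read 7.95, just below the other 3, whose deposited values were identical to each other. The first array of control 1 carried that same value, and its second array, at 7.91, lowered the mean. For Birc3, an inhibitor of apoptosis, control 4 read 7.25 and the other controls 6.87 to 6.94. No explanation was weighed.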

How the results depend on the processing

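Of 60 gene differences, 39 kept their direction in every one of the 19 alternatives in which they had a value, among them Bcl2l1, Mcl1, Bak1, Bcl2l11 and Pmaip1. Deviations of animals with the same replicate number correlated at 0.271, -0.118 and 0.339. Differently numbered animals were not set beside them, so these values cannot tell whether the number pairs animals. With that number as a replicate block, which leaves control 4 alone in its block and so without weight in the difference, Bcl2l1 was at 0.49 and passed (limma, adjusted p = 0.0358), with 1 of the 10 genes and 2017 probes past the adjusted threshold, 8 pathway genes past the unadjusted one and Bok at -0.01; the cause was not tested. Leaving out 1 animal gave 0 to 0 probes past the adjusted threshold, 2 to 3 of the 10 genes and 0 to 8 pathway genes past the unadjusted one, Bcl2 at -0.03 to 0.27, Cycs at -0.07 to 0.05, Cdkn1a at -0.12 to 0.39 and Bok at -0.01 to 0.02. Without controls 2 and 3, which leaves 5 animals, 1 of the 10 genes and 0 pathway genes passed the unadjusted threshold, Bax was at 0.03 and its other probe at -0.04, Bok at -0.00, Apaf1 at -0.02, Cycs at -0.05, Bcl6 at -0.03 and Jak2 at -0.01. With the array SD, which went largely with the group, as a covariate, 0 of the 10 genes and 1 pathway gene passed it. There Bax was at 0.08 and its other probe at -0.10, Bad at -0.03, Bid at -0.05, Aifm1 at -0.02, Apaf1 at -0.06, Cycs at -0.12, Birc2 at -0.03, Fadd at -0.09, Ripk1 at -0.02, Dnm1l at -0.03, Sesn1 at -0.03, Cdkn1a at -0.20, Bcl6 at -0.09, Foxo3 at -0.06 and Jak2 at -0.06. Quantile normalization again gave 0 pathway genes, Bbc3 at -0.02, Bcl2l10 at 0.00, Cycs at -0.02 and Mdm2 at -0.00. The first array of each animal gave 1 pathway gene and Bok at -0.03, centring on the median gave 1 pathway gene, and array weights gave Bok at -0.00 and Cycs at -0.04. For these values too the cause was not tested. All the alternatives were listed with earlier results known.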
